A study of Mus musculus with 8 samples.

Results

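The genes described here encode polycystins and other proteins of cystic kidney disease, the nephronophthisis proteins, the intraflagellar transport (IFT) machinery and the BBSome. They were chosen by symbol for these known roles, with earlier results of these data known. All 34 were found, each on 1 row of the 47729 genes in the deposited tables, and all 34 passed the filter on low counts that kept 18548 genes. RNA was profiled from whole kidneys of mice on postnatal day 8. The 4 knockout kidneys came from Six2Cre+ mice with the Kctd1 gene floxed on both alleles, and the labels call the deletion nephron specific. Six2-driven Cre acts in nephron progenitors, and collecting duct, stroma and vessels lie outside that lineage. The other 4 kidneys, of the same age, came from control littermates that the labels give as wildtype, and whether they carried Cre or floxed alleles is not stated. Whether each library stands for a separate animal is not stated either, so the p-values rest on differences between libraries that may be technical.

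Nearly every cell of the renal epithelium carries a single non-motile primary cilium that projects into the tubule lumen and senses flow and chemical signals. Proteins enter and leave it through the transition zone at its base, trains of IFT complexes move along its axoneme on kinesin and dynein motors, and the BBSome carries membrane proteins. The polycystins act in its membrane. Loss of any of several of these proteins in humans or mice gives cystic or fibrocystic kidneys, which is why the cilium is central to kidney disease.

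The libraries held 14457760 to 20066225 counts in knockout and 14957478 to 20741076 counts in wildtype. Kctd1 itself measured 22.4 to 25.8 CPM (counts scaled to a common library size) in knockout and 28.9 to 32.6 CPM in wildtype, without overlap (log2 fold change -0.38, SE 0.09; adjusted p = 0.279 by edgeR, Benjamini-Hochberg over all genes tested). Ribosomal RNA (Rn18s-rs5) took 5.39% of the counts of knockout 2, the highest share of any library, and knockout 2 and wildtype 3 alone had abundant Xist reads. Defining kidney markers were present in both groups. The 5 proximal tubule markers summed to 443 to 617 TPM (a level corrected for transcript length) in knockout and 586 to 687 TPM in wildtype, and the 5 collecting duct markers to 171 to 404 and 264 to 279 TPM. The 3 distal convoluted tubule markers summed to 35.5 to 51.4 TPM in knockout and 102 to 110 TPM in wildtype. On counts, Pvalb and Slc12a3 fell, with log2 fold changes of -2.01 and -0.91 (edgeR, adjusted p = 0.000364 and 0.00634). Trpm6 had -0.60, short of the threshold and with groups that overlapped (edgeR, adjusted p = 0.698). The 3 podocyte markers summed to 79.8 to 91.8 TPM in knockout and 109 to 145 TPM in wildtype. Of the podocyte markers, Nphs1, Podxl and Synpo had log2 fold changes on counts of -0.53, -0.44 and -0.17. All were short of the threshold (edgeR, adjusted p = 0.261, 0.302 and 0.837), and the groups overlapped for Synpo alone. The 3 thick ascending limb markers summed to 274 to 429 TPM in knockout and 320 to 378 TPM in wildtype. Umod was higher in every knockout library than in any wildtype library (log2 fold change 0.54 ± 0.08 SE; edgeR, adjusted p = 0.0599), and Slc12a1 had -0.26 ± 0.08 (edgeR, adjusted p = 0.553), both short of the threshold. In each of these 5 lists the lowest knockout sum was that of knockout 2. On the TPM scale of these sums, the median of all genes was lower in knockout (log2 shift -0.11 to -0.14, depending on the pseudocount). On counts, Lrp2, Slc34a1, Cubn and Aqp1 of the proximal tubule had log2 fold changes of 0.06, -0.00, 0.02 and 0.01, and Slc5a2 had -0.36 ± 0.10 with groups that did not overlap (edgeR, adjusted p = 0.45). The collecting duct sum was highest in knockout 1, where Aqp2 had 478 CPM, against 149 to 202 CPM in the other knockout libraries and 175 to 202 CPM in wildtype. The part these segments take in the values below was not tested. In whole kidney, fewer cells of a type and less RNA per cell cannot be told apart.

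None of the cilium and cyst genes was called changed in Kctd1 knockout kidneys. Of the 34, 0 passed the threshold of 0.05 (Benjamini-Hochberg adjusted p over all 18548 genes, by the quasi-likelihood test of edgeR). Of all genes tested 0.0809% passed, 0.0323% higher and 0.0485% lower. DESeq2 also called 0 of the 34, against 0.669% of the 23019 genes to which it gave an adjusted p, and limma called 0. At an unadjusted p under 0.05, 1 was higher and 0 were lower, where 6.18% of all genes passed, and in 1 gene, lower in knockout, the groups did not overlap. Of all genes 4.03% had groups that did not overlap, 1.97% higher and 2.06% lower. The log2 fold changes ran from -0.77 to 0.47, with 18 above and 16 below 0. Their median was 0.02, and that of all genes tested was 0.00.

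The intervals show how large a change in whole-kidney RNA these libraries leave room for. A change confined to the cells that lost Kctd1 was not measured apart. For 30 of the 34 genes the 95% interval of the fold change lay within 1.5-fold in either direction, and for 33, all but Ift80, within 2-fold. Over all genes tested, 61.1% had an interval within 1.5-fold and 80.7% within 2-fold. Of the 12319 genes with mean counts in the same range as the 34, 85.4% had one within 1.5-fold and 11835 within 2-fold. The 34 genes had between 71 and 8780 counts in a library. The 4 with wider intervals were Nphp4, Ift122, Ift80 and Bbs7. These intervals are not adjusted for the number of genes.

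**Figure D1:**
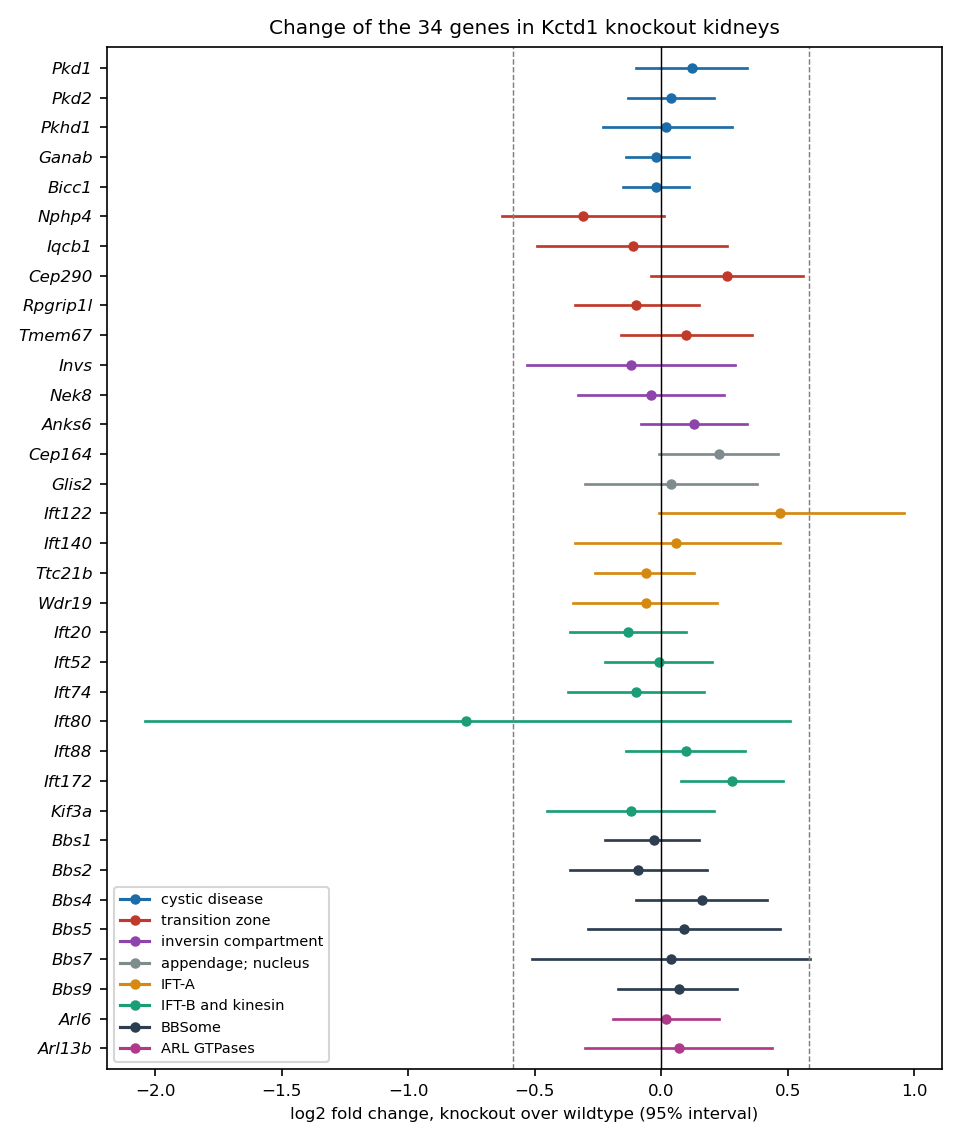
Log2 fold change of each of the 34 genes, knockout over wildtype (points), with its 95% interval (lines), coloured by role. The dashed lines mark 1.5-fold in either direction, and the intervals of Nphp4, Ift122, Ift80 and Bbs7 cross them.

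A sequence feature was shared by some of the promoters. The X-box is the palindromic element bound by RFX transcription factors, known regulators of ciliary genes from worm to mammals. RefSeq promoter windows (GRCm38.p6, 250 bases before to 50 after a start) were at hand for 28 of the 34 genes. The X-box form GTNNCCNNGGNNAC, which reads the same on both strands, was found in 5 of these 28 (17.9%) and in 2.16% of the 27025 genes with a window. A spacer of 1 to 3 bases in place of 2 gave 6 of 28, Pkhd1 being the added gene, against 1082 of 27025 genes. A particular version of a single arm, GTTGCC or its reverse complement GGCAAC, stood in 10 of the 28 (35.7%) and in 14.1% of all genes. It can be part of the longer form, which also allows other letters in the arm. The 5 matches are printed because they show how far the bases left free by the search differ. The letters GT, CC, GG and AC were fixed by the search, so all 5 share them by design. Each is given on the gene's strand with 8 flanking bases on either side, with the X-box form in capitals.
Bbs7: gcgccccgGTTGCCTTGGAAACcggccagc
Nphp4: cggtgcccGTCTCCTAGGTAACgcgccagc
Wdr19: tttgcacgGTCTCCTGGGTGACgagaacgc
Bbs4: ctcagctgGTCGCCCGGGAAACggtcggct
Bbs1: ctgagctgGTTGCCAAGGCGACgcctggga
These lie at chr3:36613489-36613518 (minus strand), chr4:152477903-152477932 (plus), chr5:65199654-65199683 (plus), chr9:59353464-59353493 (minus) and chr19:4906605-4906634 (minus). In Bbs7, Nphp4 and Wdr19 the match was upstream of the RefSeq start that the window was built on, and in Bbs4 and Bbs1 it was just past it. For Nphp4 that start lies inside the gene as GENCODE annotates it, which begins farther upstream, so the match is downstream of the GENCODE start. A match is a run of letters and not a measured binding site.

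The RFX genes themselves were not called. Rfx1 measured 4.11 ± 0.679 TPM in knockout and 4.40 ± 0.284 TPM in wildtype, and Rfx3, a known regulator of cilia in mouse, measured 0.892 ± 0.167 and 0.917 ± 0.101 TPM (SD, n = 4 each). On counts, where changes were tested, their log2 fold changes were 0.03 ± 0.09 and 0.09 ± 0.12 (SE; edgeR, adjusted p = 0.981 and 0.950). The TPM scale moved the median of all genes by -0.11 to -0.14, depending on the pseudocount. Of the 5 RFX genes looked at, 0 passed with edgeR and 0 had an unadjusted p under 0.05. The 5 genes with the X-box form had values on both sides of 0, and 0 passed. Bbs4 had a log2 fold change of 0.16, Bbs7 of 0.04, Bbs1 of -0.03, Wdr19 of -0.06 and Nphp4 of -0.31.

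Levels spread widely among the genes. On the TPM scale, which corrects for the transcript length assigned by the quantification, the means over the 8 libraries ran from 0.684 TPM for Nphp4 to 48.5 TPM for Ift20, with a median of 7.47 TPM. Ift20, Glis2, Bicc1, Iqcb1 and Ganab had the highest means, at 30.7 TPM or more, and Nphp4, Cep290 and Rpgrip1l the lowest, all below 1 TPM. Glis2, Bicc1 and Iqcb1, at 38.7, 38.2 and 37.9 TPM, could not be ordered beyond their spread. The TPM of a gene also depends on which of its transcripts reads were assigned to. Iqcb1, with 5388 annotated exonic bases, had 19.1 CPM in knockout and 20.7 CPM in wildtype, while Ganab, with 5454, had 228 and 231 CPM, so the place of Iqcb1 above Ganab rests on a shorter length in the deposited TPM values. The TPM sum of the 34 genes was 451, 318, 408 and 415 in knockout 1 to 4 and 455, 411, 455 and 475 in wildtype 1 to 4. Knockout 2, the library rich in ribosomal RNA, was the lowest. Changes were tested on counts.

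**Figure D2:**
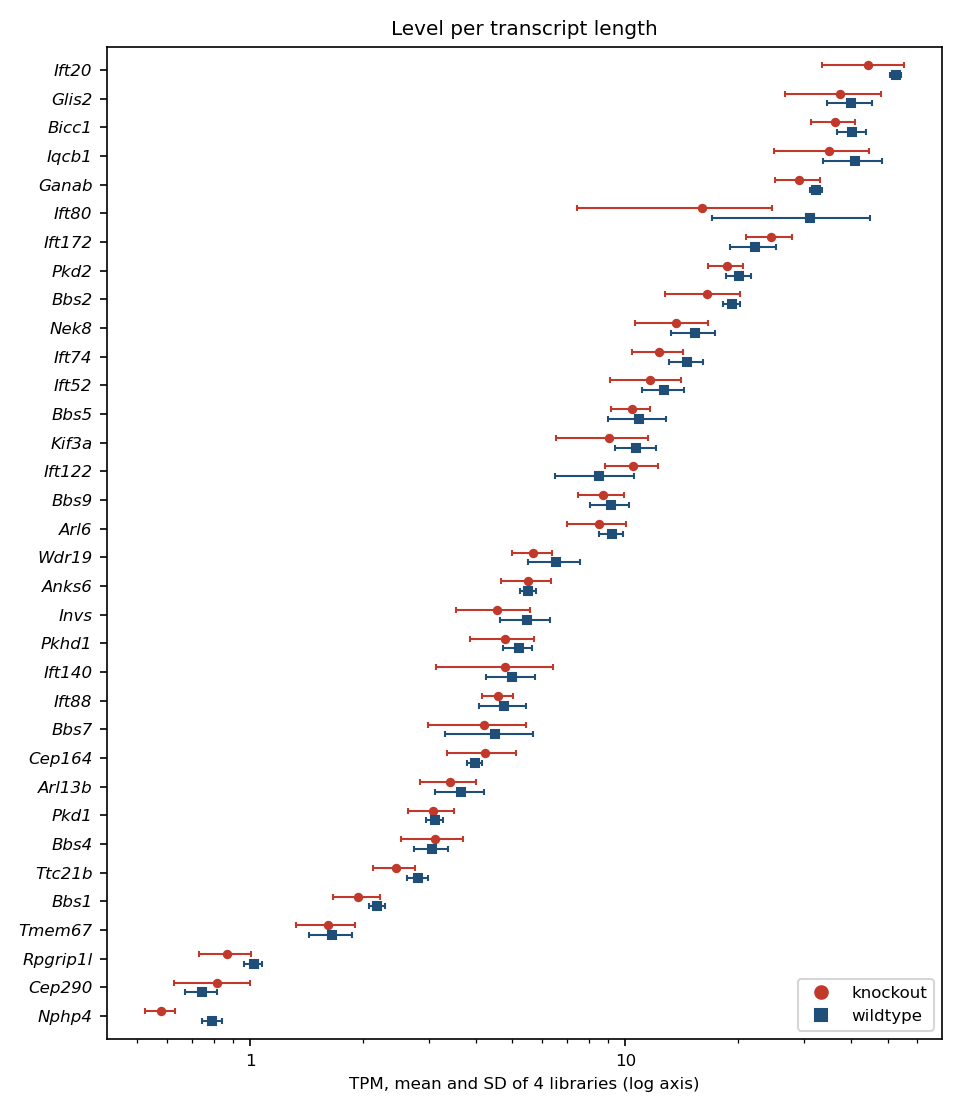
Mean TPM and SD of 4 libraries for each gene on a log axis, knockout (circles) above wildtype (squares), ordered by the mean over all 8 libraries. The genes run from 0.684 TPM (Nphp4) to 48.5 TPM (Ift20), and the groups lie farthest apart for Ift80 (16.0 TPM in knockout and 31.0 TPM in wildtype).

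For each of the 5 cystic disease genes the interval lay within 1.5-fold, and 0 passed. Pkd1 encodes polycystin-1, the large receptor-like protein most often mutated in human dominant polycystic kidney disease, and lies on chromosome 17 from 24549834 to 24596508 (GRCm38). Knockout 1 to 4 had 104, 104, 78.5 and 86.5 CPM, and wildtype 1 to 4 had 80.5, 87.2, 89.6 and 85.2 CPM. Knockout 1 and 2 were above every wildtype library and knockout 3 was below all of them. The log2 fold change was 0.12 ± 0.10 (SE, as after every log2 fold change here), with a 95% interval of -0.10 to 0.34 (edgeR, adjusted p = 0.925).

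Pkd2 encodes polycystin-2, the cation channel that pairs with polycystin-1. It lies on chromosome 5 from 104459450 to 104505819. Its levels in knockout 1 to 4 were 213, 221, 184 and 188 CPM, and those in wildtype 1 to 4 were 204, 190, 189 and 203 CPM, so the wildtype values lay inside the knockout range. Its log2 fold change of 0.04 ± 0.08 had an interval of -0.13 to 0.21 (edgeR, adjusted p = 0.970). Per length, Pkd2 at 18.6 ± 1.95 TPM in knockout and 20.1 ± 1.57 TPM in wildtype stood well above Pkd1 at 3.06 ± 0.432 TPM in knockout and 3.10 ± 0.156 TPM in wildtype (SD, n = 4 each).

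Pkhd1 encodes fibrocystin, the protein of recessive polycystic kidney disease, which is made mainly in collecting duct and thick ascending limb. The gene lies on chromosome 1 from 20057779 to 20618064. Knockout 1 to 4 had 150, 136, 101 and 116 CPM, and wildtype 1 to 4 had 118, 128, 117 and 133 CPM. As with Pkd1 and Pkd2, knockout 1 and 2 were the highest of the knockout libraries and knockout 3 the lowest. Pkhd1 had a log2 fold change of 0.02 ± 0.11, with an interval of -0.23 to 0.28 (edgeR, adjusted p = 0.991).

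Ganab encodes the catalytic subunit of glucosidase II, which trims glycans in the endoplasmic reticulum and is needed for polycystins to mature. It was among the steadiest of the 34 genes, with 216 to 233 CPM over knockout and 225 to 234 CPM over wildtype libraries, with an interval of -0.14 to 0.11. Bicc1, which encodes an RNA-binding protein whose loss gives renal cysts in mouse, had the highest CPM of the 34, at 383 to 401 in knockout and 379 to 422 in wildtype, with an interval of -0.15 to 0.11. In both genes the groups overlapped. The median log2 fold change of the 5 cystic disease genes was 0.02.

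**Figure D3:**
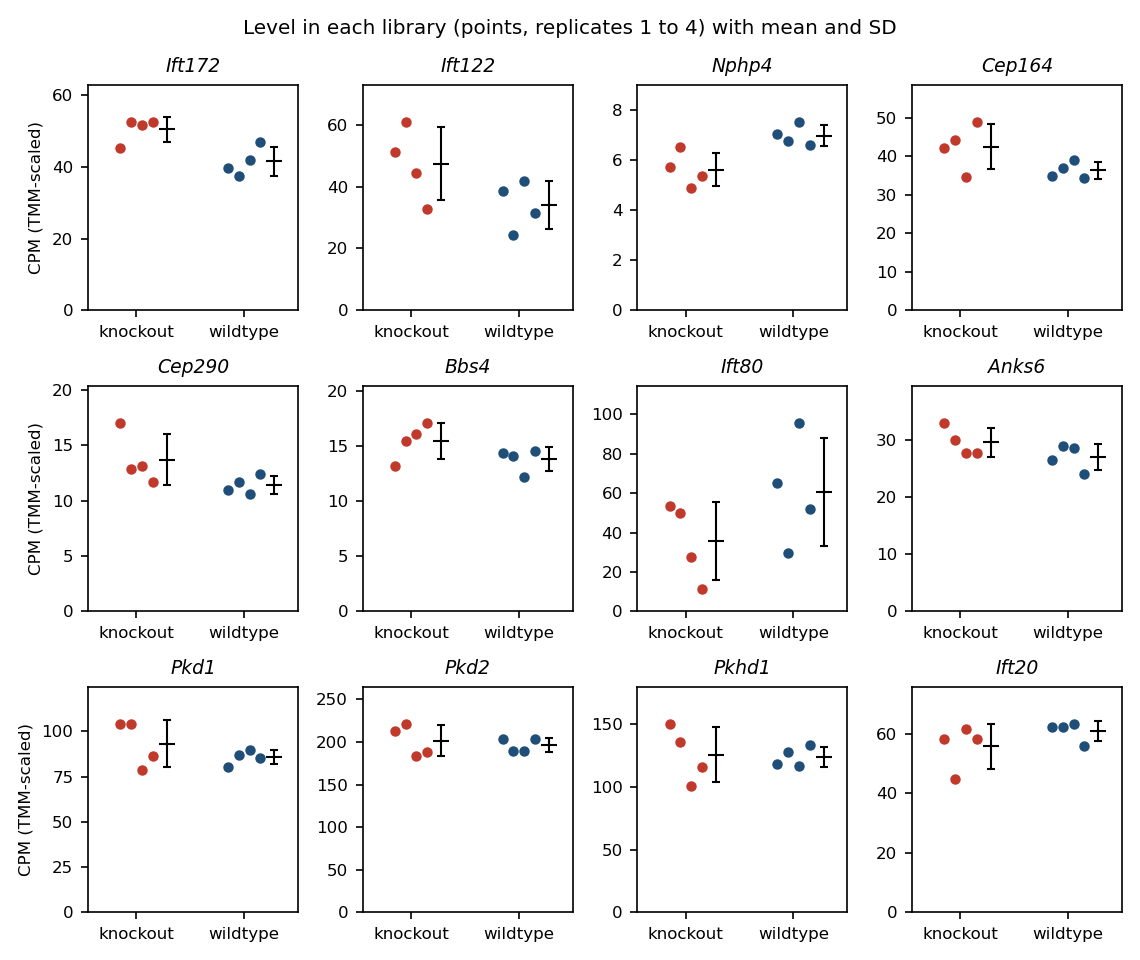
CPM in each library (points, replicates 1 to 4 from left to right) with the mean and SD of each group, knockout left of wildtype, for 12 of the genes. For Ift172, 3 of the 4 knockout libraries lie above every wildtype library, for Nphp4 all 4 lie below, Ift80 varies between 11.5 and 95.5 CPM, and the polycystin genes overlap.

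At the transition zone, the gate between cilium and cell body, the largest differences went in opposite directions. Nphp4 encodes nephrocystin-4 and lies on chromosome 4 from 152476706 to 152563183 (GRCm38). Its levels in knockout 1 to 4 were 5.72, 6.51, 4.90 and 5.38 CPM, and those in wildtype 1 to 4 were 7.06, 6.75, 7.52 and 6.59 CPM. All knockout libraries were below all wildtype libraries, the 1 gene of the 34 with groups apart. The gap between knockout 2 and wildtype 4 was small. The log2 fold change was -0.31 ± 0.14, with an interval of -0.63 to 0.01, and it did not pass (edgeR, unadjusted p = 0.0575, adjusted p = 0.819).

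Cep290 encodes a large protein of the links between microtubules and membrane in this zone. Its gene spans chromosome 10 from 100487558 to 100574840. Knockout 1 to 4 had 17, 12.9, 13.1 and 11.7 CPM, and wildtype 1 to 4 had 11, 11.7, 10.6 and 12.4 CPM. Knockout 1 was the highest and knockout 4 lay within the wildtype range. This gave a log2 fold change of 0.26 ± 0.13 (edgeR, unadjusted p = 0.0821, adjusted p = 0.841), and without knockout 1 it was 0.14, the lowest value on leaving out a library. Iqcb1, which encodes the partner of CEP290 known as nephrocystin-5, Rpgrip1l, which encodes a scaffold of the zone, and Tmem67, which encodes the membrane protein meckelin, had log2 fold changes of -0.11 ± 0.17, -0.10 ± 0.11 and 0.10 ± 0.12. Of the 5 genes, 0 passed.

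The inversin compartment lies just beyond the transition zone. Its genes Invs, which encodes inversin, and Nek8, which encodes a kinase, overlapped between groups, at 16.5 to 27.3 against 19.0 to 30.7 CPM and 26.9 to 36.8 against 26.7 to 37.7 CPM (knockout against wildtype). Anks6, which encodes an activator of NEK8 (chromosome 4 from 47015669 to 47057427), had 32.9, 29.9, 27.7 and 27.6 CPM in knockout 1 to 4, against 26.4, 28.9, 28.6 and 24.0 CPM in the wildtype libraries 1 to 4. Knockout 1 and 2 were above all wildtype libraries and knockout 3 and 4 among them. Its log2 fold change was 0.13 ± 0.10 (edgeR, adjusted p = 0.916).

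Cep164 encodes a protein of the distal appendages that dock the basal body to the membrane. Its gene spans chromosome 9 from 45766946 to 45828691. Its levels in knockout 1 to 4 were 42.0, 44.1, 34.7 and 48.8 CPM, and those in wildtype 1 to 4 were 34.8, 37.0, 39.1 and 34.3 CPM. Knockout 1, 2 and 4 were above every wildtype library and knockout 3 was among the lowest wildtype values. Cep164 had a log2 fold change of 0.23 ± 0.11 (edgeR, unadjusted p = 0.0587, adjusted p = 0.821). Glis2, which encodes a zinc finger transcription factor whose loss gives nephronophthisis in mouse and human, had its highest value, 319 CPM, in knockout 1, with the other knockout libraries at 197 to 233 CPM and wildtype at 204 to 255 CPM.

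Among IFT-A genes, whose complex moves material back to the cell body, Ift122 had the largest positive value of the 34, and lies on chromosome 6 from 115853470 to 115926699. Knockout 1 to 4 had 51.3, 60.8, 44.5 and 32.8 CPM, and wildtype 1 to 4 had 38.7, 24.3, 41.9 and 31.4 CPM. Knockout 1 to 3 were above all wildtype libraries, while knockout 4 lay among them and wildtype 2 was lowest. Ift122 had a log2 fold change of 0.47 ± 0.21, with an interval of -0.01 to 0.96 (edgeR, unadjusted p = 0.0531, adjusted p = 0.814). The other IFT-A genes did not pass either. Ift140 had a log2 fold change of 0.06 ± 0.18, Ttc21b, which encodes IFT139, one of -0.06 ± 0.09, and Wdr19, which encodes IFT144, one of -0.06 ± 0.13. The 4 genes had a median log2 fold change of 0.00.

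Ift172 was the 1 gene of the 34 with an unadjusted p under 0.05. It encodes the largest subunit of IFT-B, the complex that moves material outward, and lies on chromosome 5 from 31253277 to 31291116 (GRCm38). Its levels in knockout 1 to 4 were 45.3, 52.4, 51.7 and 52.4 CPM, and those in wildtype 1 to 4 were 39.6, 37.4, 42.0 and 46.8 CPM. Knockout 2 to 4 were above every wildtype library, and knockout 1 was below wildtype 4. The log2 fold change was 0.28 ± 0.09, with an interval of 0.08 to 0.48, or 1.22-fold (edgeR, unadjusted p = 0.0105, adjusted p = 0.587). It did not pass with DESeq2 either (adjusted p = 0.356, the lowest for any of the 34 genes in any fit).

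Ift80, which encodes another IFT-B subunit and is mutated in human skeletal ciliopathies, had the largest negative value and the largest spread, and lies on chromosome 3 from 68892499 to 69004570. Knockout 1 to 4 had 53.5, 49.9, 27.6 and 11.5 CPM, and wildtype 1 to 4 had 65, 29.7, 95.5 and 52.0 CPM. Libraries of the same group differed several times over, and wildtype 3 had 8.27 times the level of knockout 4. The log2 fold change of -0.77 ± 0.54 had an interval of -2.04 to 0.51 (edgeR, adjusted p = 0.912).

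Ift20, which encodes the small IFT-B subunit that also works at the Golgi (chromosome 11 from 78536361 to 78541737), had 58.2, 44.8, 61.5 and 58.3 CPM in knockout 1 to 4, against 62.4, 62.1, 63.2 and 56.0 CPM in the wildtype libraries 1 to 4. Knockout 2 was the lowest, and the other knockout libraries lay within the wildtype range. Its log2 fold change was -0.13 ± 0.10, and -0.038 without knockout 2. Ift52, Ift74 and Ift88, of the IFT-B core, had values of -0.01 ± 0.10, -0.10 ± 0.12 and 0.10 ± 0.11. Kif3a, which encodes a motor subunit of the kinesin that moves IFT trains outward, had -0.12 ± 0.15. Of the 7 IFT-B and kinesin genes, 0 passed, and 5 were negative and 2 positive.

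The 6 genes of BBSome subunits had log2 fold changes from -0.09 (Bbs2) to 0.16 (Bbs4), and 0 passed. Bbs4 (chromosome 9 from 59321990 to 59353508) had 13.2, 15.5, 16.1 and 17.1 CPM in knockout 1 to 4, against 14.4, 14.1, 12.2 and 14.6 CPM in the wildtype libraries 1 to 4. Knockout 2 to 4 were above every wildtype library and knockout 1 was among them (log2 fold change 0.16 ± 0.12; edgeR, adjusted p = 0.912). Bbs1 was the steadiest, at 20.3 to 23.5 CPM in knockout and 22.6 to 23.3 CPM in wildtype, and Bbs7 the most variable, at 10.3 to 20.2 and 11.3 to 20.1 CPM. Per length the subunits ranged from 2.06 TPM (Bbs1) to 17.8 TPM (Bbs2). These 2 genes were close on counts, with means of 22.5 and 26.0 CPM in knockout and 23.0 and 27.7 CPM in wildtype. Their distance in TPM thus rests largely on the transcript lengths assigned by the quantification. The GTPase genes Arl6, which recruits the BBSome to membranes, and Arl13b, which acts in the ciliary membrane, had log2 fold changes of 0.02 ± 0.09 and 0.07 ± 0.17.

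**Figure D4:**
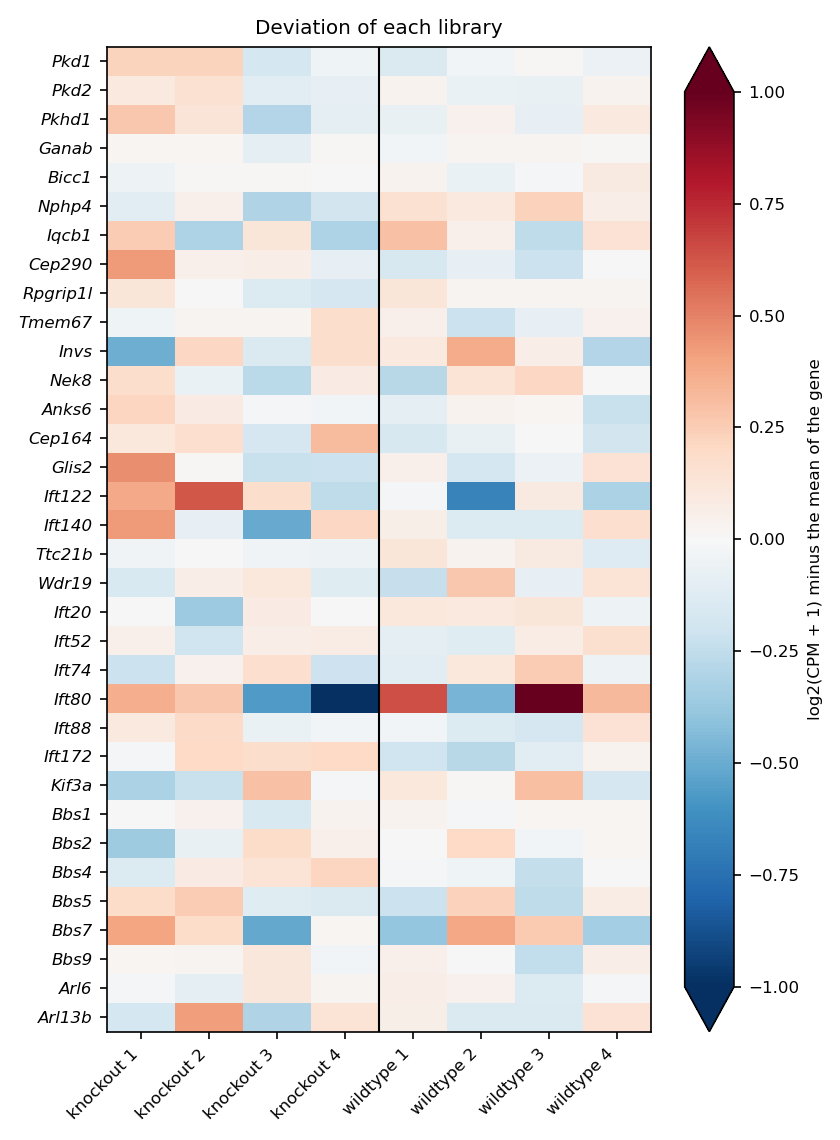
Deviation of each library from the mean of the gene, as log2(CPM + 1), for the 34 genes in the order of their roles, with knockout 1 to 4 left of the line and wildtype 1 to 4 right of it. No column and no side is of a single colour, and Ift80 has the strongest colours in both groups.

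No library held the highest or the lowest value of most of the genes. The median deviation of the 34 genes from their own means was 0.04, 0.05, -0.05 and -0.02 in knockout 1 to 4 and 0.02, 0.01, -0.01 and 0.02 in wildtype 1 to 4 on the log2 scale. Knockout 3 held the lowest value of 10 of the 34 genes, 4 of the 5 cystic disease genes among them. Knockout 1 and 2 held the highest value of 7 genes each. How often each library was lowest or highest over all genes was not counted, so these counts have no background to be read against.

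The spread between libraries of 1 group differed widely from gene to gene. The SD within groups of log2(CPM + 0.5) was 0.16 at the median of the 34 genes and 0.15 at the median of the 12325 genes in the same range of mean CPM. Ganab and Bicc1 were at 0.04 and 0.05. Ift80 was at 0.86, and 1.15% of genes in that range were at least as variable. Bbs7 at 0.41 and Ift122 at 0.36 came next, with 5.59% and 7.64% of genes at least as variable.

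**Figure D5:**
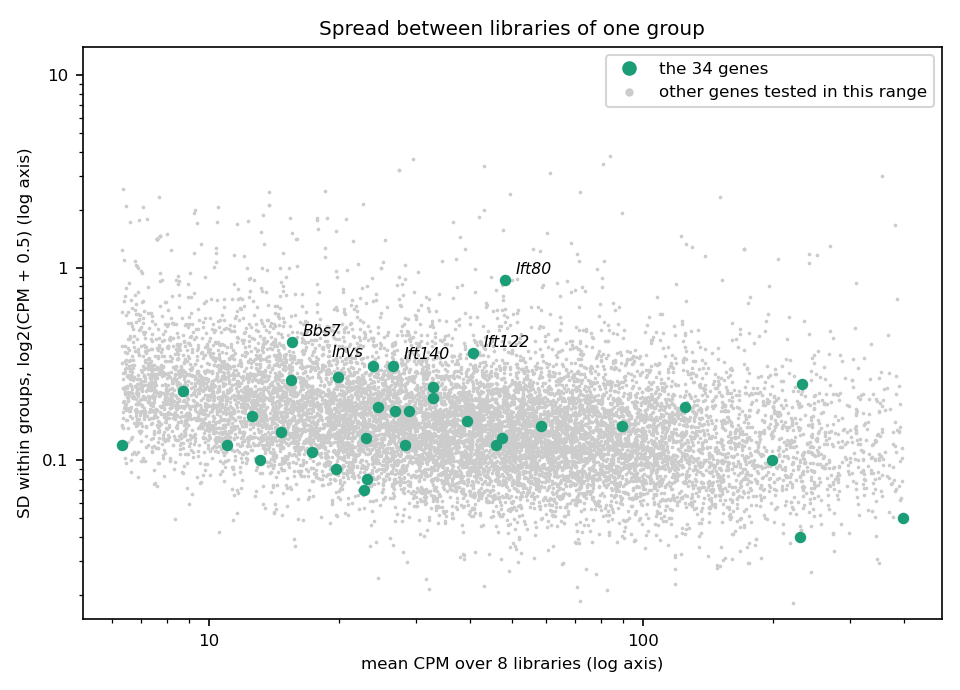
SD between libraries within groups, of log2(CPM + 0.5), against mean CPM over the 8 libraries, both on log axes, for the 34 genes (large points) and the other genes tested in the same range of mean CPM (small points). Ift80 stands at an SD of 0.86, against 0.16 at the median of the 34 genes.

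The rest of the pathway was likewise not called. Another 73 genes of the cilium, its base, the BBSome and its chaperones, cystic disease, hedgehog signalling and the RFX family were tested. Of these, 0 passed (edgeR, adjusted p over all genes), where 0.0809% of all genes did. The median log2 fold change of the 73 was -0.02. Groups did not overlap in 1 gene higher and 1 gene lower in knockout, against 4.03% of all genes. At an unadjusted p under 0.05, 1 gene passed (higher in knockout), against 6.18% of all genes. The 1 gene with an unadjusted p under 0.05 was Dync2h1, on chromosome 9 from 6928503 to 7184446. It encodes the heavy chain of the dynein-2 motor, which moves IFT trains back to the cell body. Its levels were 25.8, 34.4, 29.7 and 26.3 CPM in knockout 1 to 4, against 18.1, 21.3, 23.2 and 24.6 CPM in the wildtype libraries 1 to 4. Every knockout library was above every wildtype library. Dync2h1 had a log2 fold change of 0.41 ± 0.13, with an interval of 0.13 to 0.70 (edgeR, unadjusted p = 0.0086, adjusted p = 0.553). Ttbk2, a kinase gene needed to start cilium assembly, had the next smallest p, and lies on chromosome 2 from 120732816 to 120850604. Its CPM values were 26.4, 25.1, 21.4 and 24.2 for knockout 1 to 4, and 29.5, 27.7, 27.2 and 26.9 for wildtype 1 to 4. The groups did not overlap, with knockout lower and a log2 fold change of -0.20 ± 0.09 (edgeR, adjusted p = 0.814).

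Of the 14 further transition zone genes 3 were positive and 11 negative, with a median log2 fold change of -0.08 and a median SE of 0.12. Of the 20 further IFT genes 9 were positive and 11 negative, and of the 10 further cystic disease genes 4 and 6. In each of these lists 0 passed. Over all genes tested, 9330 were positive and 9218 negative. All genes were measured in the same 8 libraries, so their signs are not independent. The 6 further genes tied to the BBSome had a median log2 fold change of 0.02, the 11 genes of the basal body and ciliary membrane -0.04 and the 5 RFX genes 0.03. The 7 hedgehog genes, a pathway that needs the primary cilium, had log2 fold changes of -0.11 to 0.32, with 0 passing. Genes of motile cilia, which the kidney tubule lacks, summed to 6.21 to 11.2 TPM in knockout and 7.67 to 12.4 TPM in wildtype over 10 markers. Ccdc39 made up most of that sum, at 5.78 TPM in knockout and 6.32 TPM in wildtype, and Foxj1, the master regulator of motile cilia, was at 0.765 and 0.790 TPM. None of the 10 was at 0 in all 8 libraries, and of the 8 that passed the filter 0 were called.

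Of the 34 genes, 10 share exonic bases with an annotated gene on the opposite strand, Pkd1 with Tsc2 (693 bases), Cep290 with 4930430F08Rik (881 bases) and Bbs4 with Adpgk (194 bases) among them. The library kit marks strand, but no source used here states whether the counting used it. Reads shared with such partners were not examined.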

How the data were processed

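Whole kidneys of mice on postnatal day 8, 4 knockout and 4 wildtype per the labels, were profiled by RNA-seq from total RNA with a directional library kit. Per the submitters' processing notes, Salmon (version not given in the sources used here), DESeq2 1.14.1 and the mm10 build are named without their roles. The authors deposited estimated counts per gene as whole numbers, and TPM values per gene with symbols. Counts carry no gene names and took them by row order from the TPM table (47729 identifiers, 2 of them listed on 2 rows). As a check, log2 count-to-TPM ratios of 13251 well-covered genes, centred per library, varied between libraries by an SD of at most 0.00862, against a median of 0.281 after a shift by 1 row.

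Genes were filtered with filterByExpr, scaled with TMM and tested with edgeR 4.0.16 (quasi-likelihood test, robust, two-sided, genotype alone) in R 4.3.3, with Benjamini-Hochberg adjustment over 18548 genes at a threshold of 0.05. Each SE was obtained as |log2 fold change| over the root of F, and 95% intervals use the moderated degrees of freedom. The biological coefficient of variation was 20.7%. Totals per library are given with the results. All 28 pairs of libraries differed beyond sampling noise (lowest chi-square per df 11.2). The test was tried on simulated data. Alternatives were RLE scaling, no filter, DESeq2 1.42.0, the replicate number as a block, limma 3.58.1 on log2(TPM + 1) and log2(TPM + 0.1), each library left out, and both libraries with Xist reads left out. Coordinates are from GENCODE M21 (GRCm38, which mm10 denotes) and promoters from RefSeq (GRCm38.p6).

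The genes and lists were chosen with earlier results of these data known. Given with every library are genes past the threshold (none here), the 8 with the smallest p, Pkd1, Pkd2, Pkhd1 and the genes with the highest and lowest mean TPM, plus the 2 other pathway genes with the smallest p. The motif forms were chosen after the expression values were seen.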

Additional observations from a re-analysis of the deposited data

Results flagged for a closer look

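In 68 groups of 4 libraries, 5 held a library far from the other 3 (gap to the nearest library divided by the range), where chance gives about 3.4, or 1 in 20. In knockout, Ganab was low in knockout 3 (216 CPM; others 231, 233 and 233 CPM; ratio 0.903), Ift52 low in knockout 2 (40.9 CPM; others 48.9, 49.4 and 49.6 CPM; 0.918) and Ift172 low in knockout 1 (45.3 CPM; others 51.7, 52.4 and 52.4 CPM; 0.897). In wildtype, Rpgrip1l was high in wildtype 1 (14.3 CPM, the others all at 13.3 CPM; 0.960) and Ift20 low in wildtype 4 (56.0 CPM; others 62.1, 62.4 and 63.2 CPM; 0.848). Each of the 5 is in a different library.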

How the results depend on the processing

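The count of the 34 genes past the threshold was 0 in the reported fit and in all 16 alternatives, and the smallest adjusted p of any of them was 0.356 (DESeq2, Ift172). Their median log2 fold change ran from -0.014 to 0.038 on leaving out each library. Over all genes, 15 passed in the reported fit, 27 with no filter, 154 with DESeq2, 6 with limma on log2(TPM + 1) or log2(TPM + 0.1), 9 with limma and no filter, 3 without both libraries with Xist reads, and 10 to 52 on leaving out each library (29 without knockout 3 and 52 without wildtype 4). The TPM scale moved the median of all genes by -0.11 (pseudocount 1) and -0.14 (pseudocount 0.1), and values on it are given relative to that shift. The sign turned in at least 1 alternative for 18 genes, none of them over 0.12 in size in the reported fit and none of them called. Without both libraries with Xist reads these were Pkd2 (-0.027), Pkhd1 (-0.046), Nek8 (0.047), Ift52 (0.076), Kif3a (0.021), Bbs5 (-0.071), Bbs9 (-0.0027) and Arl13b (-0.13). On the log2(TPM + 1) scale, with and without a filter, they were Pkhd1 (-0.0056), Glis2 (-0.016) and Arl6 (-0.0068). On leaving out each library the ranges that crossed 0 were -0.0091 to 0.08 for Pkd2, -0.072 to 0.11 for Pkhd1, -0.031 to 0.0069 for Ganab, -0.044 to 0.0086 for Bicc1, -0.23 to 0.0095 for Invs, -0.13 to 0.04 for Nek8, -0.13 to 0.12 for Glis2, -0.089 to 0.21 for Ift140, -0.15 to 0.029 for Wdr19, -0.05 to 0.053 for Ift52, -0.057 to 0.011 for Bbs1, -0.17 to 0.0031 for Bbs2, -0.10 to 0.20 for Bbs7, -0.0046 to 0.10 for Bbs9, -0.026 to 0.05 for Arl6 and -0.088 to 0.17 for Arl13b. The causes were not tested. The replicate numbers were not shown to pair libraries (correlations of same-numbered libraries -0.0741 to 0.05), and with the number as a block 10 genes passed and 0 of the 34. Ift122, Ift172, Nphp4, Cep164 and Cep290 kept their sign in all 16 alternatives.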
